A study of Mus musculus with 36 samples.

Results

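Hearts collected late in the light phase, at zeitgeber time (ZT, hours after lights on) 10, were compared with hearts collected late in the dark phase, at ZT22, in the mice labelled WT. The groups were taken from the sample titles and held 3 libraries each, 6 of the 36 samples of the series. Both groups came from C57BL/6 mice 8 weeks old. The genotype field reads the same for every sample of the series and names both Reverb fl/fl and a form of it with MHC+, so which of them a WT library carried cannot be read from it, and the group rests on the title alone. The mice were kept under 12 h of light and 12 h of darkness, and ate normal chow. Whole hearts were sequenced as bulk RNA, so that fewer cells of a type and less RNA per cell cannot be told apart. Separate animals are not stated for the 3 libraries of a time, so the tests measure the variation among libraries, which may be technical. That variation was pooled within groups over all 33 libraries fitted, those of other times and those labelled KO included. Each SE and p-value therefore does not rest on the 6 compared libraries alone.

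The circadian clock is a loop of transcription factors that runs in heart muscle cells as in most other cells. The activators Bmal1 (gene Arntl) and Clock bind E-boxes and switch on the Per, Cry and Rev-erb genes, whose proteins repress in turn: Per and Cry proteins act on the activators, and the Rev-erb receptors compete with ROR receptors at ROR elements in Arntl and other genes. Dbp, Tef and Hlf, which activate through D-boxes, and Nfil3, which represses through them, form a further arm that carries the rhythm to output genes.

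Levels are given in FPKM (reads scaled to transcript length and library size), and differences as ZT10 minus ZT22 on the log2(FPKM + 1) scale, which understates the change of low genes. A gene was called when its limma p-value, adjusted by the Benjamini-Hochberg method over the 11790 genes tested, was under 0.05. Depth recovered from the values was 13.885 to 15.015 M reads per library at ZT10 and 14.35 to 15.625 M at ZT22, a precision at which counting error is small above a few FPKM and large near 0. Log2 levels correlated across genes at 0.994 to 0.997 among libraries of a time and at 0.987 to 0.991 between times, and the first principal component, with 57.5% of the variance, separated the groups. ZT10 replicate 1 lay apart from the other 2 ZT10 libraries on the second component, with 13.96% of the variance. Defining cardiomyocyte genes were present at high levels in all 6 libraries, for example Myl2 at a mean of 17428 FPKM at ZT10 and 17150 FPKM at ZT22.

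Of the genes tested 2967 were called, 25.2% in all: 1780 (15.1%) were higher and 1187 (10.1%) lower at ZT10. Values of the 3 ZT10 and 3 ZT22 libraries did not overlap in 4844 genes (41.1%). Of the called genes 2832 did not overlap. The 24 genes with the largest differences were chosen among genes without overlap, so that trait was fixed for them by the choice. Most differences were small, since 89.4% of the called genes differed by less than 0.5, and 45 genes differed by at least 1, of which 27 were higher and 18 lower. The median difference over all genes tested was 0.03, which is the value to read the lists against. The split between directions depended on how libraries were scaled: it was 1359 higher and 1593 lower after median-ratio scaling, which moved log2 values of ZT10 against ZT22 by 0.036, 1471 and 1421 after quantile normalization, and 1418 and 1523 by edgeR on rebuilt counts. Without ZT10 replicate 1 the count was 2011, with 1240 higher and 771 lower.

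The clock genes stood in opposite phases. All 12 genes of the E-box list, which holds the Per, Rev-erb, Dbp family and Bhlhe genes with Cry2 and Ciart, were higher at ZT10, with a median difference of 1.30, and 5 of the 6 genes of the ROR element list were lower, with a median of -0.94. Both lists were drawn up from what is known of clock genes and with earlier results of these data known, so their direction is not independent evidence.

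Promoter sequence is shown for 5 clock genes whose windows hold the motif that their list is named for, or the D-box. Each window covers 250 bases before and 50 after a RefSeq transcript start in the GRCm38.p6 build, is written 5′ to 3′ on the strand of the gene, and has the motif in capitals. Ciart (minus strand, chr3:95882179-95882478) holds the E-box CACGTG 3 times, starting at bases 135, 193 and 207 of the window.

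Ciart: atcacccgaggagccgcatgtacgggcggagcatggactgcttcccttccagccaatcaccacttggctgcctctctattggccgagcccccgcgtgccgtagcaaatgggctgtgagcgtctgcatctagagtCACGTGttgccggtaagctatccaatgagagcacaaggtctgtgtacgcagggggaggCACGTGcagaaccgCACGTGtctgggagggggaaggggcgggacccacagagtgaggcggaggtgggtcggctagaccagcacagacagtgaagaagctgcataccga

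Per1 (plus strand, chr11:69098699-69098998) holds 1 E-box at base 85.

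Per1: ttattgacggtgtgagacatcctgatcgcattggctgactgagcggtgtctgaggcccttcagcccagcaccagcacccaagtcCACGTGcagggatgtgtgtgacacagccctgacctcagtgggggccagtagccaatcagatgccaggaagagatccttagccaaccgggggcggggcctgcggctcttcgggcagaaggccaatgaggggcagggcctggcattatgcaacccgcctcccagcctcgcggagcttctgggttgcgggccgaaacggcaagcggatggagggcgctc

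Per3 (minus strand, chr4:151044616-151044915) holds no CACGTG in this window but the D-box TTATGTAA at bases 46 and 93.

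Per3: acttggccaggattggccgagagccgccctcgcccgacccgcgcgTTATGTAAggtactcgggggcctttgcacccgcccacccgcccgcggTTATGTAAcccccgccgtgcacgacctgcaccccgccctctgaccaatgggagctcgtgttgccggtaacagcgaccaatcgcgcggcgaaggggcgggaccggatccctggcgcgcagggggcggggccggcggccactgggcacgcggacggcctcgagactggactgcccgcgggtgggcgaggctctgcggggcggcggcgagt

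Arntl (plus strand, chr7:113207261-113207560) holds the ROR element TAGGTCA at base 281.

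Arntl: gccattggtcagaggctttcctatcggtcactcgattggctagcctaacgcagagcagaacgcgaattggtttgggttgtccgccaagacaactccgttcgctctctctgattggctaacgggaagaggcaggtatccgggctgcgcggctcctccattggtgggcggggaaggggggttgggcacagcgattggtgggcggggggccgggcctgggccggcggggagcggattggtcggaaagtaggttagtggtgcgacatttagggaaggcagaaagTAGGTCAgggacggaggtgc

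Nfil3 (minus strand, chr13:52980990-52981289) holds the same element at base 239 in reverse complement, as TGACCTA.

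Nfil3: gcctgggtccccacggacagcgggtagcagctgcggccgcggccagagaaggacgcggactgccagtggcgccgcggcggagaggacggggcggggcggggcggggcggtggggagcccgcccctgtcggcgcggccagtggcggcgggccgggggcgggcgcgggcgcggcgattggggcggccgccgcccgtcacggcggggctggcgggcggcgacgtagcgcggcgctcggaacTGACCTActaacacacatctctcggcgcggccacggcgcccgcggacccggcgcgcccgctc

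Both strands were searched, and a match is a description of these letters, not of binding. A list gene was counted when any of its windows held the motif, whereas the background shares are per window. Since the 32851 windows cover 27025 genes, the counts and shares are not on the same footing. CACGTG was in 4 of the 10 E-box list genes with a window, namely Ciart, Per1, Bhlhe41 and Tef, and in 7.15% of all 32851 windows of this length. The D-box, searched as TTATGTAA or TTACGTAA, was in 1 of those 10 genes and in 1.06% of windows. The ROR element, searched as TAGGTCA or TGGGTCA, was in 2 of the 5 ROR list genes with a window and in 6.45% of windows. CACGTG was also in 1 of those 5, Cry1, which was lower at ZT10.

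Among the outputs, Dbp (NCBI Gene 13170, chr7:45705100-45710203, mm10), a D-box activator, was at 117.7, 123.72 and 110.18 FPKM in the ZT10 libraries and at 16.41, 14.97 and 17.25 FPKM in the ZT22 libraries. The groups lay far apart, with the lowest ZT10 library above the highest ZT22 library. The difference was 2.78 ± 0.12 SE (n = 3 per group, limma adjusted p = 2.05e-15), the smallest adjusted p of the named genes. Its relatives Tef and Hlf, which bind the same boxes, were higher at ZT10 by 0.48 and 0.38.

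Among the repressors, Ciart (NCBI Gene 229599), which binds and inhibits the Bmal1 and Clock complex, was at 20.39, 16.77 and 14.97 FPKM at ZT10 and at 1.81, 2.61 and 1.91 FPKM at ZT22. Its groups did not overlap, and it differed by 2.56 ± 0.19 (n = 3 per group, limma adjusted p = 1.36e-10). Nr1d1, which encodes Rev-erbα, was at 64.24, 68.46 and 63.87 FPKM at ZT10 against 13.56, 9.29 and 16.48 FPKM at ZT22, a difference of 2.27 ± 0.16 (limma adjusted p = 6.79e-11). Every ZT10 library was well above every ZT22 library. Thra, on the other strand, overlaps it, and without a stated use of strand the reads where they overlap may belong to either gene. Nr1d2, which encodes Rev-erbβ, was at 42.35, 37.83 and 38.78 FPKM at ZT10 and at 10.81, 10.69 and 11.6 FPKM at ZT22, and its difference was 1.76 ± 0.08 (limma adjusted p = 1.03e-14).

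The Period genes, whose proteins carry the negative limb of the loop, were all higher at ZT10. Per3 was at 9.14, 9.01 and 9.18 FPKM at ZT10 and 2.82, 2.6 and 2.69 FPKM at ZT22, so that the spread within each group was far smaller than the gap between them (1.45 ± 0.09, n = 3 per group, limma adjusted p = 1.14e-11). Per1 was at 21.14, 19.65 and 16.46 FPKM against 6.04, 7.43 and 6.36 FPKM (1.40 ± 0.15, limma adjusted p = 3e-07). Per2 was lower in level and more variable, at 6.71, 5.07 and 4.36 FPKM against 1.81, 1.99 and 1.43 FPKM (1.21 ± 0.18, limma adjusted p = 1.54e-05). The groups overlapped for none of the 3 Period genes, all of which were chosen among genes without overlap. Bhlhe40 and Bhlhe41, E-box repressors also called Dec1 and Dec2, were higher by 1.03 and 0.92, and Cry2 by 0.42.

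Genes of the other phase were low at ZT10. Arntl (NCBI Gene 11865, chr7:113178471-113314126), which encodes Bmal1, was at 1.22, 1.45 and 1.61 FPKM at ZT10 and at 8.65, 9.85 and 9.24 FPKM at ZT22. It was the largest decrease of all the named genes (-2.08 ± 0.14, n = 3 per group, limma adjusted p = 2.69e-11), and the groups did not overlap. Nfil3, the D-box repressor, was at 3.68, 3.96 and 4.56 FPKM against 12.84, 14.3 and 12.18 FPKM (-1.48 ± 0.10, limma adjusted p = 1.14e-11). Npas2, a relative of Clock that also pairs with Bmal1, was at 0.72, 0.68 and 0.54 FPKM against 2.91, 2.09 and 2.2 FPKM (-1.04 ± 0.12, limma adjusted p = 6.66e-07). Cry1, which differs from Cry2 in its direction here, was lower by 0.83. Clock itself was not called, at a mean of 5.45 FPKM at ZT10 and 6.16 FPKM at ZT22 (-0.15 ± 0.07, limma adjusted p = 0.121).

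**Figure D1:**
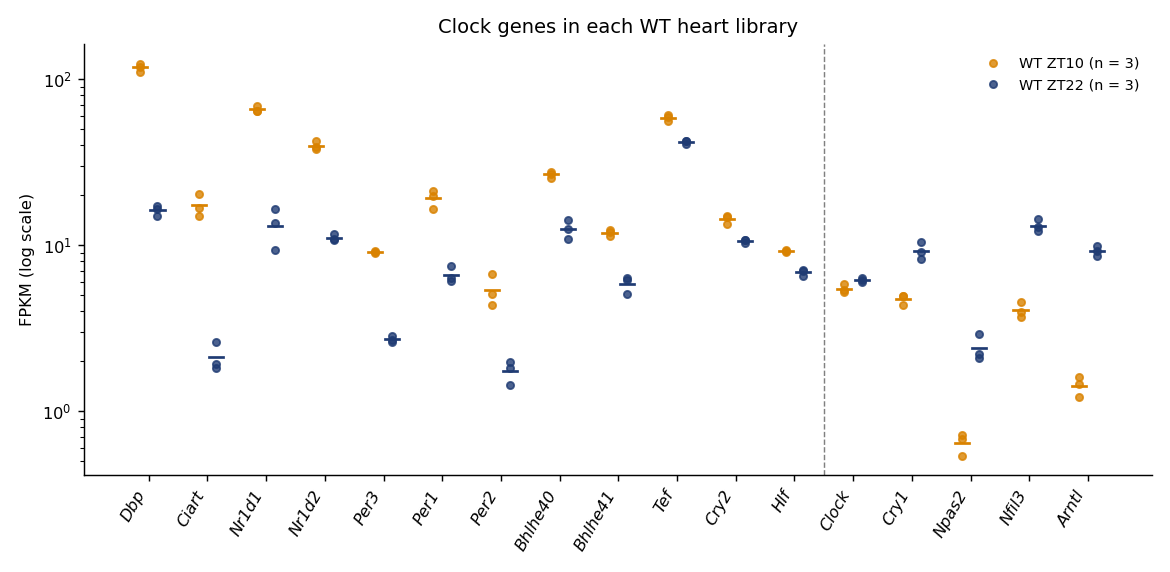
FPKM on a log scale for the 12 E-box list genes (left of the dashed line) and 5 of the 6 ROR list genes (right) in each WT library, 3 at ZT10 (orange) and 3 at ZT22 (blue), with short lines at the means. The orange points lie above the blue points for all 12 genes on the left, with Dbp at 110.18 to 123.72 against 14.97 to 17.25 FPKM, and below them for the genes on the right, with a small gap for Clock.

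Of 11 other clock components tested, 5 were higher and 0 lower. They included Usp2, a deubiquitinase with clock-controlled expression, at 0.82, Tipin, Rora and Nono. The casein kinase genes Csnk1d and Csnk1e, whose products phosphorylate Per proteins, were not called (0.11 and -0.08). After edgeR on rebuilt counts the list had 3 higher genes. Tipin lost its call in 6 alternatives, among them without ZT10 replicate 3 (limma adjusted p = 0.171). Nono lost its call in 6 of the alternatives, among them median-ratio scaling (limma adjusted p = 0.0563) and without ZT10 replicate 1 (0.0764).

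Genes of the sarcomere and of actin were among the 24 largest differences. Tcap (NCBI Gene 21393), which encodes the Z-disc protein telethonin that caps titin, was at 2200.43, 2158.09 and 1867.22 FPKM at ZT10 and at 677.06, 687.48 and 666.13 FPKM at ZT22. The lowest ZT10 library was far above the highest ZT22 library (1.61 ± 0.09, n = 3 per group, limma adjusted p = 1.03e-12). Lmod2, leiomodin 2, which lengthens thin filaments, was at 374.59 to 419.72 FPKM against 266.25 to 276.08 FPKM (0.52 ± 0.07, limma adjusted p = 4.2e-06). Of the 27 sarcomere and Z-disc genes tested, 4 were higher (Tcap, Lmod2, Myom2 and Myh7) and 8 lower, with a median of 0.01 that lies next to that of all genes. After quantile normalization the list had 6 higher and 5 lower.

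The 8 lower genes included 2 of the sarcomeric actins and 3 thin filament genes. Acta1 (NCBI Gene 11459), skeletal α-actin, a gene of the fetal and stressed heart, was at 347.51, 501.33 and 587.77 FPKM at ZT10 and at 1608.05, 1636.3 and 1634.5 FPKM at ZT22. The ZT10 libraries spread widely and the ZT22 libraries hardly at all, with no overlap (-1.80 ± 0.29, n = 3 per group, limma adjusted p = 4.75e-05). Actc1, cardiac α-actin, was at 9108.51, 9560.98 and 9908.3 FPKM against 14927.3, 13918.3 and 14735.2 FPKM (-0.61 ± 0.04, limma adjusted p = 9.21e-11). Quantile normalization gives Actc1 a difference of 0, because that method sets a gene of the same rank to the same value in each library. Tnnc1, Tnnt2 and Tpm1, which encode troponin C, troponin T and tropomyosin, were lower by 0.50, 0.15 and 0.16. Quantile normalization likewise gives Tpm1 a difference of 0. Tnnt2 lost its call after quantile normalization (limma adjusted p = 0.115) and without ZT22 replicate 1 (0.0625).

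Acta2 (NCBI Gene 11475), smooth muscle α-actin, was at 45.77, 49.83 and 49.58 FPKM at ZT10 and at 179.18, 156.36 and 235.75 FPKM at ZT22 (-1.93 ± 0.21, n = 3 per group, limma adjusted p = 1.8e-07), again with no overlap. The other contractile smooth muscle genes were not called: Myh11 was at 4.31 and 4.24 FPKM, Tagln at 8.19 and 8.61 FPKM and Cnn1 at 0.877 and 0.717 FPKM in the ZT10 and ZT22 means. Of the 10 smooth muscle and pericyte markers 1 was higher (Abcc9) and 2 lower (Acta2 and Des), 30% called against 25.2% of all genes tested. Their summed level was 1218 to 1275 FPKM at ZT10 and 1415 to 1543 FPKM at ZT22. The Abcc9 call was lost under 8 alternatives, among them median-ratio scaling (limma adjusted p = 0.0663) and without ZT10 replicate 1 (0.154). The actin genes are similar in coding sequence, so the authors' counting could have split some reads between them, and the value of each is uncertain to that extent.

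The windows of Acta1 and Actc1 are shown because both genes were lower at ZT10 and both windows hold a CArG box, the motif of serum response factor (capitals), which was in 1.63% of all windows. Among the other genes named here the box was also in the windows of Herpud1, which was higher at ZT10, and Rhoj, which was lower. Acta1 (minus strand, chr8:123894726-123895025) holds it at base 178.

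Acta1: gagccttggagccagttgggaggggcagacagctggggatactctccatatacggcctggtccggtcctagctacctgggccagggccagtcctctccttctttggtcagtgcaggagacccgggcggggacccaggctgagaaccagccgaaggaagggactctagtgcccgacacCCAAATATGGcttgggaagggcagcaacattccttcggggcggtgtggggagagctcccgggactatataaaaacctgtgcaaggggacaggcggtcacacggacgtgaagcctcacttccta

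Actc1 (minus strand, chr2:114052826-114053125) holds it at base 204.

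Actc1: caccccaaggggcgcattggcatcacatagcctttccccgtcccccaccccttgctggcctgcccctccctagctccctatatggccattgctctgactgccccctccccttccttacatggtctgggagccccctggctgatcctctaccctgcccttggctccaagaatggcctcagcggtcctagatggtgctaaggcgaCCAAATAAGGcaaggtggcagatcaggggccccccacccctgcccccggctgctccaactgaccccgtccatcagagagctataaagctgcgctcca

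Genes of cardiac stress and the fetal programme went both ways, 2 higher and 5 lower of 12 tested, with a median of -0.28. Nppb, the precursor of B-type natriuretic peptide, was at 118.65, 153.92 and 207.62 FPKM at ZT10 and at 410.17, 454.3 and 413.65 FPKM at ZT22 (-1.44 ± 0.17, n = 3 per group, limma adjusted p = 9.99e-07), with no overlap. Rcan1, a calcineurin inhibitor that calcineurin signalling induces, was lower by 0.67. Nppa, the atrial natriuretic peptide gene, was not called (-0.30, limma adjusted p = 0.317). Ccn2, a matricellular growth factor gene, was higher by 0.56. Myh7, the slow myosin heavy chain, was at 175.39, 119.14 and 66.22 FPKM at ZT10 and at 49.03, 57.5 and 39.27 FPKM at ZT22. It varied within some other groups too, at 47.38, 41.45 and 178.77 FPKM in WT ZT14. In KO ZT10 it was at 285.77, 63.54 and 218.5 FPKM, but in WT ZT6 it was steadier, at 163.48, 147.97 and 177.24 FPKM. Between ZT10 and ZT22 Myh7 was called by a small margin (1.20 ± 0.44, limma adjusted p = 0.0434). It was not called without ZT10 replicate 1 (0.87, limma adjusted p = 0.218) or without any of 4 other libraries. Without that replicate the list had 1 higher and 3 lower genes.

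Further genes among the 12 largest decreases were Rtn4r, the Nogo receptor, at 2.98 to 3.63 FPKM at ZT10 and 12.89 to 16.44 FPKM at ZT22 (-1.89), and Adam19, a metalloprotease, at 3.36 to 4.16 and 13.74 to 14.24 FPKM (-1.70). Spon2, a matrix protein of the spondin family, Tmem171, a transmembrane protein, and Cited4, a transcriptional cofactor, differed by -1.39, -1.33 and -1.12. Grip2, a scaffold protein with PDZ domains, and Inpp5j, an inositol polyphosphate phosphatase, differed by -1.08 and -1.07. Among the largest increases were Gadd45b, a stress-induced growth arrest gene, at 5.89 to 7.75 against 2.05 to 2.57 FPKM (1.30), and Arrdc2, of the arrestin domain family, at 5.39 to 11.74 against 2.76 to 3.54 FPKM (1.21). None of the 24 genes with the largest differences lost its call under any alternative.

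**Figure D2:**
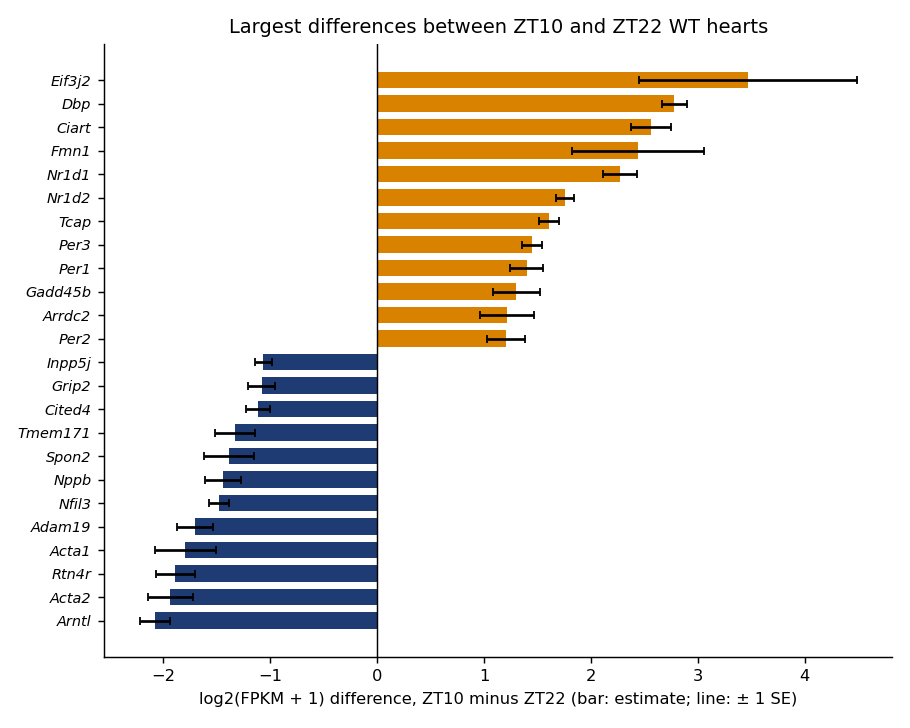
The 12 largest increases (orange) and 12 largest decreases (blue) among called genes with a mean of at least 1 FPKM whose groups did not overlap, as ZT10 minus ZT22 on the log2(FPKM + 1) scale with 1 SE. Clock genes hold 7 of the 12 upward bars, and the error bars of Eif3j2 (3.47 ± 1.02) and Fmn1 (2.44 ± 0.62) are the longest.

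Eif3j2 and Fmn1, also among the largest increases, took 2 levels among libraries that did not follow the time of day. Eif3j2, annotated as a subunit gene of translation initiation factor 3, was at 21.15, 19.3 and 17 FPKM at ZT10 and at 0.95, 1.02 and 0.52 FPKM at ZT22 (3.47 ± 1.02, n = 3 per group, limma adjusted p = 0.0131). Yet the WT ZT2 libraries were at 19.08, 0.54 and 0.48 FPKM and the WT ZT14 libraries at 0.68, 19.72 and 0.89 FPKM. Over all 33 libraries 12 were at 17 FPKM or more, 20 at 1.69 FPKM or less and 1 at 5.91 FPKM. Libraries of 1 time and genotype thus stood at opposite levels.

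Fmn1, the actin nucleator formin 1, was at 5.72, 4.79 and 5.2 FPKM at ZT10 and at 0.17, 0.15 and 0.12 FPKM at ZT22 (2.44 ± 0.62, n = 3 per group, limma adjusted p = 0.00477), but at 3.77, 4.72 and 0.18 FPKM in the WT ZT2 libraries. Eif3j1, a near-identical copy of Eif3j2 with which it may share reads, was at 28.62 to 29.52 FPKM at ZT10 and 41.24 to 41.85 FPKM at ZT22 and was not called (-0.51, limma adjusted p = 0.0914). Slc28a2b, annotated as a nucleoside transporter, was at 1.42 to 1.63 FPKM against 0.09 to 0.19 FPKM, and at 1.89, 0.09 and 0.2 FPKM in the WT ZT2 libraries. Fmn1, Eif3j1 and Slc28a2b lie on chromosome 2 and Eif3j2 on chromosome 18. Since all 3 ZT10 libraries stood at 1 level and all 3 ZT22 libraries at the other, time and this difference between libraries cannot be told apart for these genes. Whatever else differs between libraries at these levels is split between the groups in the same way. Its part in the other calls of this comparison was not tested.

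Actc1 (chr2:114047282-114052875) and the stress gene Chac1 lie near Fmn1. Between 110 and 120 Mb of chromosome 2, 12 of 45 tested genes were called, 26.7% against 25.2% elsewhere, and between 110 and 130 Mb 39 of 131, 29.8% against 25.1%. Both windows were set after values were seen, and the share depends on where they end. In the WT ZT14 libraries, where Eif3j2 was high in the second alone, Actc1 was at 10826, 11868.3 and 11975.1 FPKM, with the second between the others. In the WT ZT2 libraries, where Eif3j2 was high in the first alone, Actc1 was at 12022.8, 10955.1 and 10639.3 FPKM, with the first highest. In the KO ZT14 libraries, where Eif3j2 was high in the first and second, Actc1 was at 12399.7, 12162.8 and 11483.3 FPKM. In the ZT10 libraries compared here, all high in Eif3j2, Actc1 was lower than in any other WT library. By Fmn1, the first and second WT ZT2 libraries were high (3.77 and 4.72 FPKM), and they held the higher Actc1 values. The first WT ZT18 library was high in Fmn1 (2.57 FPKM) and had the lowest Actc1 of its group. In KO ZT6 the library low in Fmn1 had the highest Actc1. In KO ZT10 and KO ZT18, where Eif3j2 was highest in the second library, its Actc1 lay between the others. Whether Actc1 follows either gene was not tested.

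**Figure D3:**
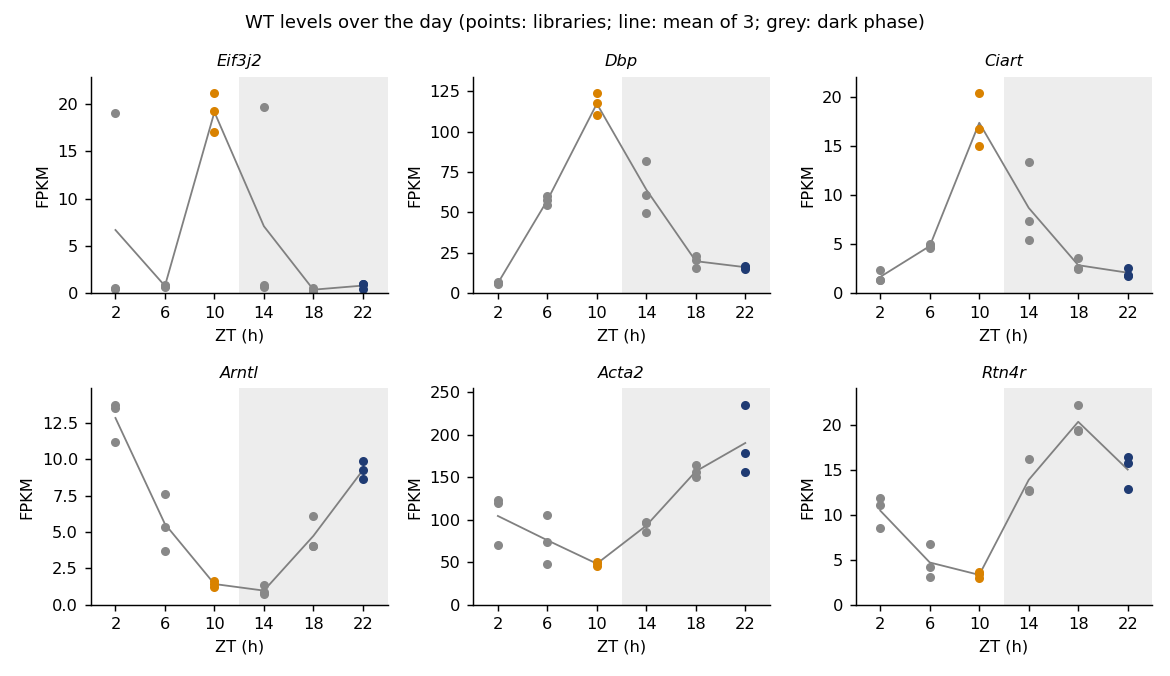
FPKM of the 3 largest increases (top) and the 3 largest decreases (bottom) in the WT libraries at 6 times (points, ZT10 orange, ZT22 blue; line, mean of 3; grey, dark phase). Dbp and Ciart peak at ZT10 and Arntl is lowest at ZT14, whereas single Eif3j2 points at ZT2 and ZT14 lie near 19 FPKM above the other 2.

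Over the 6 WT times, Dbp had means of 6.33 FPKM at ZT2, 57.5 at ZT6, 117 at ZT10, 64.1 at ZT14, 19.9 at ZT18 and 16.2 at ZT22. Ciart ran from 1.69 FPKM at ZT2 through 4.82, 17.4, 8.71 and 2.88 to 2.11 FPKM at ZT22. For both, ZT10 was the highest time and ZT2 the lowest, so ZT22 was near but not at the trough. Arntl was at 12.8, 5.54, 1.43, 0.973, 4.73 and 9.25 FPKM in the same order of times, with its peak at ZT2 and its low at ZT14. Acta2 was lowest at ZT10 and highest at ZT22 (105, 76, 48.4, 93.2, 157 and 190 FPKM). Rtn4r was lowest at ZT10 (3.33 FPKM) and highest at ZT18 (20.4 FPKM).

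Among all 1780 higher genes ZT10 was the highest of the 6 WT means in 968 and ZT22 the lowest in 779, and both held in 327. Among the 1187 lower genes ZT10 was the lowest in 596 and ZT22 the highest in 661, and both held in 266. Since these means include the values that made the call, the counts describe the called genes and test nothing.

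Of 17 fasting-responsive genes tested 7 were higher and 2 lower, with a median of 0.07, and 5 and 1 without ZT10 replicate 1. Ucp3, mitochondrial uncoupling protein 3, was at 50.89, 56.6 and 59.22 FPKM at ZT10 and at 24.31, 23.61 and 25.52 FPKM at ZT22 (1.15 ± 0.19, n = 3 per group, limma adjusted p = 7.54e-05). Cpt1a, the carnitine palmitoyltransferase isoform that is scarcer in adult heart, was at 21.38, 22.9 and 24.28 FPKM against 13.22, 11.57 and 13.32 FPKM (0.80 ± 0.07, limma adjusted p = 7.41e-09). For both, the groups did not overlap. Pdk4, the kinase that shuts pyruvate dehydrogenase, had means of 241 and 143 FPKM (0.75, limma adjusted p = 0.016), and Foxo3 was higher by 0.36. Lpin1, lipin 1, and Cidea, a lipid droplet protein, were lower by 0.41 and 0.17, and Angptl4, an inhibitor of lipoprotein lipase, was not called (-0.68, limma adjusted p = 0.103).

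Fatty acid oxidation had 6 higher and 0 lower genes of 20, 30% called against 25.2% of all genes tested. Its median was 0.08, and its differences were small apart from Cpt1a, which the fasting list also holds. Acadl, Hadhb and Etfa, of the mitochondrial β-oxidation path, were higher by 0.16, 0.18 and 0.14, while the muscle isoform Cpt1b was not called (-0.05). Without ZT10 replicate 1 the list had 3 higher genes, and Etfa was no longer called (limma adjusted p = 0.0613). Of 11 genes of fatty acid uptake 5 were higher and 2 lower, 63.6% called. The binding protein Fabp4 was at 914.22, 915.78 and 931.85 FPKM against 671.25, 718.08 and 648.56 FPKM (0.44 ± 0.06, n = 3 per group, limma adjusted p = 4.54e-06), with no overlap. The transporters Slc27a1 and Cd36 were higher by 0.33 and 0.19, and Lmf1, which matures lipases, was lower by 0.33. Without ZT10 replicate 1 the uptake list had 3 higher and 2 lower genes.

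Triglyceride turnover went both ways, with 3 of 18 genes higher and 4 lower, 38.9% called against 25.2% of all genes tested. Lipe, hormone-sensitive lipase, was higher by 0.63 and Gpam, the first acyltransferase of triglyceride synthesis, by 0.55, while G0s2, an inhibitor of adipose triglyceride lipase, was lower by 0.81. The G0s2 call was lost without ZT22 replicate 2 (limma adjusted p = 0.0556). Without ZT10 replicate 1 the 4 lower genes became 2. Of 10 acyl-CoA thioesterases 3 were higher, namely Acot1, Acot2 and Acot4. That was 30% called, with a list median of 0.005. Acot1 overlapped between groups and lost its call in 8 alternatives.

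Glucose uptake and glycolysis had 2 higher and 9 lower genes of 25, with a median of -0.09. Slc16a1, the monocarboxylate transporter MCT1, was at 85.09, 84.27 and 89.9 FPKM at ZT10 and at 131.75, 128.38 and 127.87 FPKM at ZT22 (-0.58 ± 0.05, n = 3 per group, limma adjusted p = 6.51e-10). Pgam1, phosphoglycerate mutase, was at 43.31 to 45.18 FPKM against 68.26 to 78.72 FPKM (-0.71), and Gapdh at 4298.65 to 4580.66 FPKM against 5286.7 to 5701 FPKM (-0.30). The groups overlapped for none of these 3 genes. Pfkfb3, whose product makes the glycolytic activator fructose 2,6-bisphosphate, went the other way, at 5.26, 4.61 and 4.15 FPKM against 2.13, 1.8 and 1.73 FPKM (0.97 ± 0.11, limma adjusted p = 4.05e-07), as did Ldhb (0.15). Quantile normalization left 6 lower genes in this list.

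Of 24 glycogen genes 2 were higher and 3 lower, 20.8% called against 25.2% of all genes tested. The lower genes included the glycogen-targeting subunits of protein phosphatase 1, Ppp1r3b at -0.93 and Ppp1r3c at -0.84, and the kinase Gsk3a at -0.23. Gsk3b, its partner isoform, was higher by 0.23, as was Epm2a, laforin, by 0.34, a call lost under 9 alternatives. After either scaling the list had 1 higher and 4 lower genes, and 1 and 3 without ZT10 replicate 1. Among 14 genes of pyruvate entry into mitochondria 5 were higher and 1 lower, with Pdha1, a subunit of pyruvate dehydrogenase, at 0.18, the carrier Mpc1 at 0.17 and the kinase Pdk2 at -0.15. The Pdk2 call was lost without ZT10 replicate 1 (limma adjusted p = 0.0789), without ZT22 replicate 1 (0.0665) and after quantile normalization (0.0894).

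The citric acid cycle had 4 higher and 0 lower genes of 18, with Suclg2 and Sucla2, subunits of succinyl-CoA ligase, at 0.31 and 0.21. Its other calls, Ogdh and Sdha, were lost under 11 and 6 alternatives. Both were lost after median-ratio scaling, where the list had 2 higher and 1 lower, and without ZT10 replicate 1, where it had 2 and 0. Of 36 genes of oxidative phosphorylation 2 were higher, Cox7b and Atp5c1, and 6 lower, with a median of 0.02. Ndufs7 was lower by 0.24, Cyc1 by 0.19 and Cox8b by 0.26, and the split was 6 and 5 after quantile normalization, and 1 and 2 without ZT10 replicate 1. Branched-chain amino acid breakdown had 5 higher and 0 lower of 18, led by Ppm1k, the phosphatase that activates the branched-chain dehydrogenase (0.48). After median-ratio scaling that list had 2 higher and 2 lower, and without ZT10 replicate 1 it had 3 and 0. The shares called in the lists of this paragraph were 22.2, 22.2 and 27.8% in turn, near the 25.2% of all genes tested.

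Among 14 regulators of mitochondrial metabolism 2 were higher, Gabpa (0.46) and the corepressor Nrip1 (0.44), and 2 lower, Ppard (-0.34) and Perm1 (-0.22). Ppargc1a and Ppara were not called, at -0.11 and -0.15. The shares called were 28.6% of these regulators and 13.3% of the NAD salvage list, against 25.2% of all genes tested. In NAD salvage, Nampt, the rate-limiting enzyme, and the deacetylase Sirt1 were the 2 higher genes of 15, by 0.34 and 0.26, and without ZT10 replicate 1 neither was called (limma adjusted p = 0.0654 and 0.0855).

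Glucocorticoid-responsive genes, a list that shares Per1 with the clock, had 8 higher and 0 lower of 19, with a median of 0.39. Cebpb, a transcription factor, was at 42.41, 39.96 and 28.24 FPKM at ZT10 and at 17.46, 16.9 and 14.21 FPKM at ZT22 (1.12 ± 0.21, n = 3 per group, limma adjusted p = 0.000368), with no overlap. Klf9 was at 53.62, 47.6 and 43.77 FPKM against 29.12, 27.36 and 28.84 FPKM (0.74), and Nfkbia, the inhibitor of NF-κB, was higher by 0.75. Tsc22d3 and Sgk1 were higher by 0.39 and 0.32, although the Sgk1 call was lost under 10 alternatives, and Fkbp5 was not called, at 5.95 and 7.91 FPKM (-0.42, limma adjusted p = 0.277). Of 12 KLF factors 6 were higher and 0 lower, with Klf6 at 0.54, Klf15, a regulator of cardiac nutrient use, at 0.47 and Klf2 at 0.27. Without ZT10 replicate 1 there were 3 and Klf15 was not called (limma adjusted p = 0.077), and after either scaling the list had 4 higher and 1 lower.

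Of 20 endoplasmic reticulum stress genes 10 were higher and 0 lower, with a median of 0.18. Hsp90b1, Grp94, was at 195.69, 198.97 and 225.35 FPKM against 137.82, 133.29 and 148.29 FPKM (0.56 ± 0.08, n = 3 per group, limma adjusted p = 5.55e-06). Herpud1, which serves degradation from that compartment, was at 194.93, 172.05 and 149.59 FPKM against 119.17, 120.05 and 119.05 FPKM (0.52 ± 0.06, limma adjusted p = 1.16e-06). Both were higher in every ZT10 library. Hspa5, BiP, was higher by 0.33 and Sel1l and Canx by 0.31 and 0.26, while Xbp1 was not called (-0.01).

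Of 20 genes of heat shock proteins and chaperones, a list that also holds the transcription factor Hsf1, 0 were higher and 6 lower. The share called was 30%, against 25.2% of all genes tested. The median was -0.24, and 4 were lower without ZT10 replicate 1. Hsf1, the heat shock factor, was at 15.71, 18.45 and 19.15 FPKM against 24.08, 24.83 and 24.48 FPKM (-0.44 ± 0.07, n = 3 per group, limma adjusted p = 6.67e-05). Cryab, αB-crystallin, was lower by 0.39, Hspe1 by 0.52 and Fkbp4 by 0.24, with no overlap between groups. The 3 cold-inducible RNA-binding genes were all higher. Srsf5 was at 137.44, 122.28 and 126.74 FPKM against 58.27, 60.51 and 60.25 FPKM (1.10 ± 0.06, limma adjusted p = 8.98e-13), Cirbp at 41.18 to 48.57 against 19.8 to 23.42 FPKM (0.99) and Rbm3 at 72.69 to 75.37 against 51.55 to 59.28 FPKM (0.42).

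**Figure D4:**
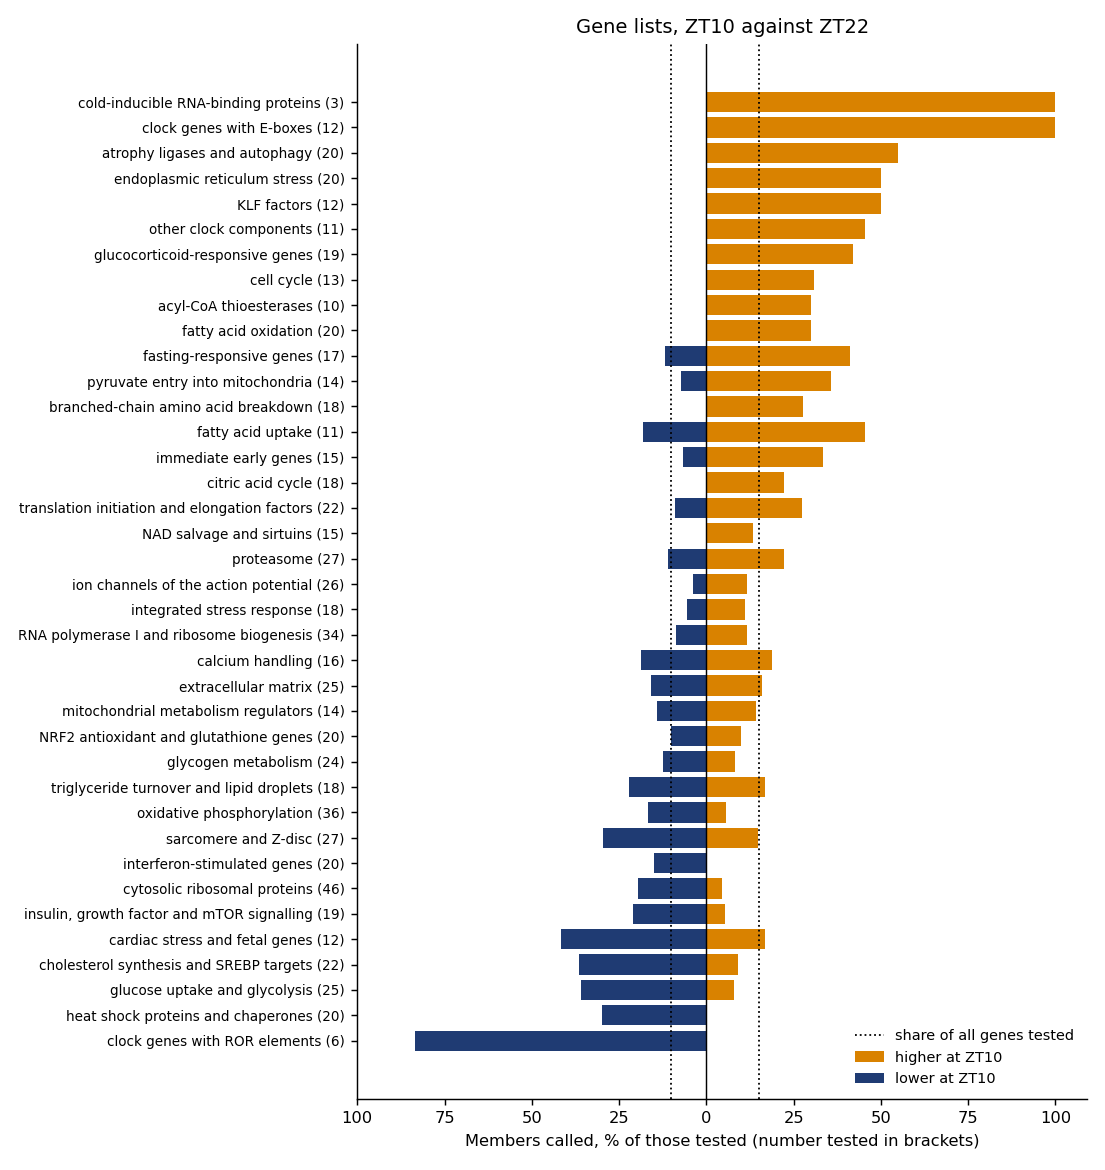
Share of tested members of each list (number in brackets) called higher (orange, right) or lower (blue, left) at ZT10, with dotted lines at the shares of all genes tested, 15.1% higher and 10.1% lower. The E-box and cold-inducible lists reach 100% on the right and the ROR list 83.3% on the left, while most metabolic lists lie nearer the dotted lines.

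Of 20 genes of atrophy ligases and autophagy 11 were higher and 0 lower, with a median of 0.16. Gabarapl1, of the autophagosome, was at 66.71, 65.38 and 65.05 FPKM against 49.93, 51.28 and 46.85 FPKM (0.41 ± 0.05, n = 3 per group, limma adjusted p = 2.99e-06). Atg14 and Fbxo32 (atrogin-1) were higher by 0.40 and 0.50 and Bnip3l by 0.24, and Trim63 (MuRF1) was not called (0.11). Of 27 proteasome genes 6 were higher, all encoding subunits of the regulatory particle, with Psmd4 at 0.26 and Psmc6 at 0.25, and 3 lower, all core subunits with Psmb7 at -0.18. The share of proteasome genes called was 33.3%, against 25.2% of all genes tested. Their split was 3 higher and 7 lower after median-ratio scaling, and 4 and 0 without ZT10 replicate 1.

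In translation 6 of 22 factors were higher and 2 lower, 36.4% called. Eif4b was at 67.99, 68.69 and 71.09 FPKM against 50.69, 51.82 and 52.06 FPKM (0.42 ± 0.04, n = 3 per group, limma adjusted p = 6.46e-08), with no overlap, and the elongation factors Eef1a1 and Eef2 were higher by 0.27 and 0.26. Eif5a was lower by 0.18, and without ZT10 replicate 1 the list had 4 higher and 1 lower. Of 46 cytosolic ribosomal protein genes 2 were higher and 9 lower, with a median of -0.06 and Rps2 (-0.32) at the front. The count was 0 and 14 after median-ratio scaling and 2 and 3 without ZT10 replicate 1. Of 34 genes of RNA polymerase I and ribosome biogenesis 4 were higher, among them the nucleolar genes Ncl (0.37) and Npm1 (0.35). Another 3 were lower, among them Rrn3 (-0.21) and Utp4 (-0.24), and without ZT10 replicate 1 there were 2 and 2. The shares called were 23.9% of the ribosomal protein genes and 20.6% of the biogenesis genes, against 25.2% of all genes tested.

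In insulin and mTOR signalling 1 of 19 genes was higher and 4 were lower, 26.3% called against 25.2% of all genes tested. Pik3ip1, an inhibitor of PI3 kinase, was higher by 0.76, and the adaptors Grb10 and Irs1 were lower by 0.47 and 0.41, the kinase Akt1 by 0.33 and Rptor by 0.19, which was not called without ZT10 replicate 1 (limma adjusted p = 0.0513). Cholesterol synthesis and SREBP targets had 2 higher (Sc5d and Fasn) and 8 lower of 22, with a median of -0.10. Msmo1 was at 4.46, 3.72 and 4.61 FPKM against 6.99, 5.73 and 6.08 FPKM (-0.47 ± 0.09, n = 3 per group, limma adjusted p = 0.000581), Scd2 differed by -0.53 and Hmgcs1 by -0.21. The Fasn call was lost under 4 alternatives. These were without ZT10 replicate 3 (limma adjusted p = 0.0556), without ZT22 replicate 1 (0.08), only the libraries of the contrast (0.0693) and quantile normalization (0.0506). Most of these genes were below 20 FPKM.

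Of 26 ion channel genes 3 were higher and 1 lower, with a median of 0.01. That was 15.4% called, against 25.2% of all genes tested. Cacnb2, a calcium channel subunit, was at 28.39, 26.84 and 29.63 FPKM against 24.23, 22.52 and 24.13 FPKM (0.25 ± 0.06, n = 3 per group, limma adjusted p = 0.00225), Kcnh2 (hERG) was higher by 0.22, and of the transient outward current genes Kcnd2 was higher by 0.30 and Kcnd3 lower by 0.31. Both Kcnd calls were lost without ZT10 replicate 1 (limma adjusted p = 0.0797 and 0.0567), and after median-ratio scaling the list had 3 higher and 3 lower. Kcnip2, the subunit that pairs with Kcnd channels, was not called (-0.15, limma adjusted p = 0.25). Of 16 calcium handling genes 3 were higher, with Trdn (triadin) at 0.32 and Pln (phospholamban) at 0.18, and 3 lower, with Casq2 (calsequestrin) at -0.20, Calm3 at -0.19 and Jph2 at -0.19.

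Immediate early genes had 5 higher and 1 lower of 15, 40% called. Ier3 was at 25.65, 26.83 and 25.99 FPKM against 15.99, 13.93 and 14.65 FPKM (0.78 ± 0.13, n = 3 per group, limma adjusted p = 9.47e-05), and Junb was higher by 0.74. Fos and Egr1 were not called (-0.16 and -0.29). The lower gene, Atf3, lost its call under 7 alternatives. Of 25 extracellular matrix genes 4 were higher and 4 lower, 32% called against 25.2% of all genes tested. Serpinh1, the collagen chaperone, was at -0.69 and the collagen hydroxylase P4ha2 at -0.43. The list had 7 lower genes after median-ratio scaling and 2 without ZT10 replicate 1.

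The part that other cell types may have in these differences was not tested, and their marker lists are given with summed levels. The shares called were 10% of endothelial, 22.2% of fibroblast and 10% of macrophage markers, against 25.2% of all genes tested. Of 10 endothelial markers 0 were higher and 1 lower (Emcn), with summed levels of 325 to 331 FPKM at ZT10 and 342 to 350 FPKM at ZT22. Of 9 fibroblast markers 2 were higher, Dcn and Gsn, and 0 lower, with sums of 993 to 1056 against 848 to 882 FPKM. Of 10 macrophage markers 1 was higher (Cd163), although the sum was lower, at 120 to 139 against 149 to 155 FPKM. None of the 5 red blood cell genes tested was called, and their sum was 3384 to 3923 against 4431 to 4664 FPKM. None of the 5 atrial, 3 neutrophil, 6 class II, 5 Schwann cell and neuron or 6 mesothelial markers tested was called either. Of the 8 atrial markers 1, Bmp10, was at 0 in all 6 libraries. The sum of the atrial list was 250 to 407 FPKM at ZT10 and 386 to 407 FPKM at ZT22. All 8 T and B cell markers in the table were under 1 FPKM.

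Whether ZT10 differs from ZT22 as other times 12 h apart do was tested in the same fit, against ZT6 minus ZT18 and against ZT2 minus ZT14. The pairs of times share no library with ZT10 and ZT22, but both tests use the same ZT10 and ZT22 libraries. The difference from ZT6 minus ZT18 was called in 611 genes (5.18%), 272 positive and 339 negative, and in 339 genes when only WT libraries were fitted. The difference from ZT2 minus ZT14 was called in 3469 genes (29.4%), 2105 positive and 1364 negative.

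ZT6 minus ZT18 itself was called in 3355 genes (28.5%). It shared 1507 called genes with ZT10 minus ZT22, 50.8% of the latter and 44.9% of its own, of which 1449 had the same sign and 58 the opposite sign. ZT2 minus ZT14 was called in 2305 genes (19.6%) and shared 820, 27.6% and 35.6% of the lists, of which 184 had the same sign and 636 the opposite sign. ZT10 minus ZT22 thus ran with the earlier light and dark pair and mostly against the pair around lights on and lights off.

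Against ZT6 minus ZT18, the 6 genes with the smallest adjusted p were Arntl, Ier3, Per3, Cacnb2, Rhoj and Angptl4. Arntl differed by -2.08 between ZT10 and ZT22 and by 0.17 between ZT6 and ZT18, and the difference of the differences was -2.25 ± 0.20 SE (limma adjusted p = 1.03e-07). Per3 differed by 1.45 and 0.07 (1.38 ± 0.13). Ier3 turned from 0.78 to -1.18 (1.96 ± 0.19), and Cacnb2 from 0.25 to -0.52 (0.77 ± 0.08). Rhoj, a small GTPase of endothelial cells, was at 8.76, 9.15 and 9.71 FPKM at ZT10 and 14.73, 14.35 and 15.28 FPKM at ZT22, a difference of -0.63 against 0.45 for ZT6 minus ZT18 (-1.08 ± 0.12).

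Angptl4 was at 9.72, 12.55 and 12.7 FPKM at ZT10 and at 18.38, 21.84 and 17.35 FPKM at ZT22, whereas its means were 27.8 FPKM at ZT6 and 2.41 FPKM at ZT18. Its 2 differences were -0.68 and 3.10, which differ by -3.77 ± 0.43 (limma adjusted p = 3.25e-06). Pdk4, another gene of the fasting list, showed a difference of 0.75 for ZT10 minus ZT22 and 2.99 for ZT6 minus ZT18 (601 and 76.8 FPKM), and Ucp3 of 1.15 and 2.75. Nr1d1 differed alike in size, by 2.27 and 2.39, and the difference of -0.12 ± 0.23 was not called.

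Against ZT2 minus ZT14, the 6 genes with the smallest adjusted p were Dbp, Nfil3, Arntl, Tcap, Per3 and Nr1d2. Dbp differed by 2.78 between ZT10 and ZT22 and by -3.13 between ZT2 and ZT14 (5.91 ± 0.17, limma adjusted p = 4.66e-20). Tcap and Per3 turned likewise, from 1.61 to -1.55 and from 1.45 to -1.59. Nfil3 and Arntl turned the other way, from -1.48 to 1.92 and from -2.08 to 2.82. Nr1d2 had a difference of differences of 2.47, and Acta1 differed by -1.80 and -0.84, which was not called as a difference (limma adjusted p = 0.0755).

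**Figure D5:**
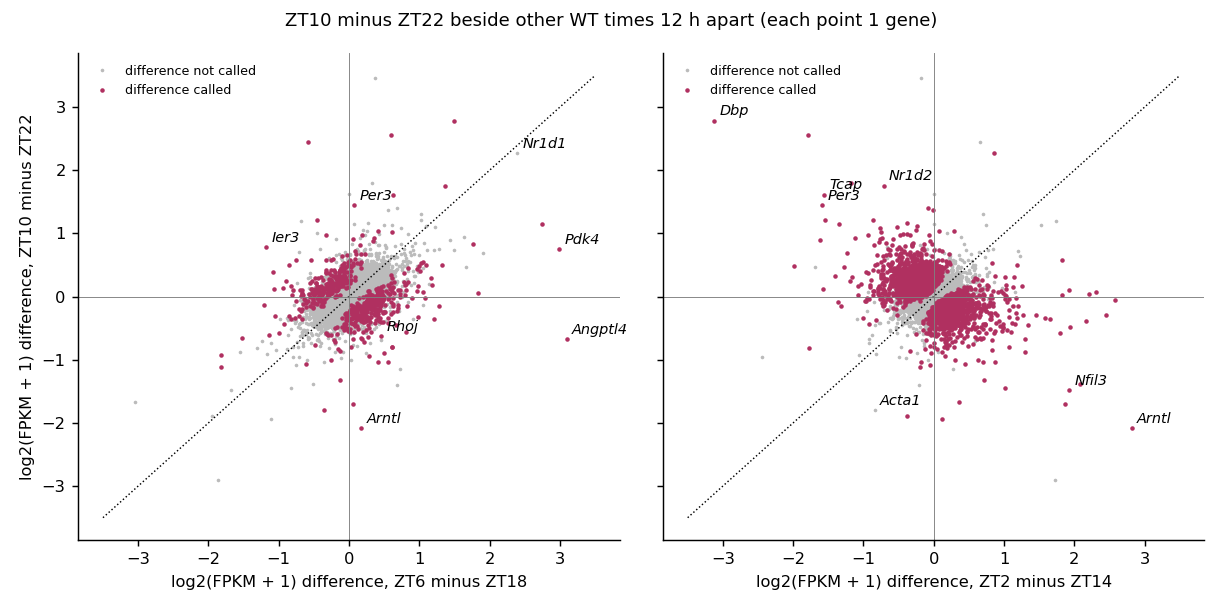
ZT10 minus ZT22 (vertical) against ZT6 minus ZT18 (left) and ZT2 minus ZT14 (right), both on the log2(FPKM + 1) scale, 1 point per gene, with genes whose 2 differences were called different in red and the dotted line at equality. Red points are fewer on the left (611) than on the right (3469), where Dbp, Tcap, Per3, Nfil3 and Arntl lie on opposite sides of 0 on the 2 axes.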

How the data were processed

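RNA from mouse hearts was measured in 36 samples, of which 33 libraries entered the fit. Reads were mapped to mm10, per the submitters' processing notes, while no source used here names the aligner, the counting program or the annotation. The authors deposited FPKM values for 18762 NCBI Gene IDs per library, a unit inferred from the values, since the column headers do not name it. Gene names came from RefSeq for 18623 IDs. The 3 tables recorded for KO ZT22 hold expected counts that, per the file headers, belong to KO ZT10. They served only to recover lengths of 13138 genes, and KO ZT22 was not analysed here. In WT ZT14 the header replicate numbers differ from the record, which was followed. Of columns with per-sample values, 1 was left unused.

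Genes reaching 1 FPKM in 3 or more libraries were fitted as log2(FPKM + 1) with limma 3.58.1 (trend) in R 4.3.3, with 11 group means and 22 residual degrees of freedom, and adjusted by Benjamini-Hochberg at 0.05. The script was tested on simulated data. No 2 of the 6 libraries held identical values (0 of 15 pairs), and within-group chi-square per degree of freedom on rebuilt counts was 2.60 to 5.27. Of low values used to recover depth, 63.2 to 75% lay within 0.15 of a whole read. Alternatives were another pseudocount, filter, scaling or set of libraries, a replicate block, each library left out, and edgeR 4.0.16 on counts rebuilt from FPKM, rounded to whole reads, added after seeing the data. The members, gene lists and tests were chosen with earlier results of these data known. Genes were named by rule: the 12 largest called differences each way whose mean reached 1 FPKM and whose groups did not overlap, up to 4 called members of each list by adjusted p with members whose role is needed to read it, and the 6 smallest adjusted p of each difference between pairs of times. Eif3j1, Slc28a2b and the windows of chromosome 2 were chosen after their values were seen, and so were the genes given as not called. A few list members are counted in their lists and not reported here by name.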

Additional observations from a re-analysis of the deposited data

Results flagged for a closer look

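Effects of time differed between pairs of times by a test of the difference itself, all on the log2(FPKM + 1) scale. ZT10 minus ZT22 differed from ZT6 minus ZT18 in 611 genes, and the 6 with the smallest limma adjusted p differed by -2.248 (Arntl), 1.956 (Ier3), 1.382 (Per3), 0.7704 (Cacnb2), -1.083 (Rhoj) and -3.772 (Angptl4). ZT10 minus ZT22 differed from ZT2 minus ZT14 in 3469 genes, and the 6 with the smallest adjusted p differed by 5.906 (Dbp), -3.399 (Nfil3), -4.895 (Arntl), 3.166 (Tcap), 3.035 (Per3) and 2.47 (Nr1d2). Groups of 3 libraries were too small for a test of single outlying samples.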

How the results depend on the processing

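The number of genes called between ZT10 and ZT22 stayed within 1.5 times of 2967 under every alternative, from 2367 with a mean of at least 5 FPKM to 2952 after median-ratio scaling, and 2941 by edgeR on rebuilt counts, but leaving out 1 library gave 2011 (ZT10 replicate 1) to 2654. The difference from ZT6 minus ZT18 was called in 339 genes with WT libraries only against 611, and in 413 to 554 with 1 library left out. The difference from ZT2 minus ZT14 was called in 2573 to 3471 genes, and in 2967 to 3619 with 1 library left out. The same numbers marked no pairs, since deviations of same-numbered ZT10 and ZT22 libraries correlated at -0.022 to 0.025, and a replicate block gave 2883, 564 and 3385 called genes in the 3 tests. Of the 171 called genes named in the text 36 lost their call between ZT10 and ZT22 under some alternative, 26 of them without ZT10 replicate 1, and 0 changed sign. The Myh7 call was lost under 9 alternatives: with no filter (limma adjusted p = 0.083), median-ratio scaling (0.051), WT libraries only (0.0578), the replicate block (0.0501), and without ZT10 replicate 1 or 2 or any ZT22 library (0.056 to 0.218). The block also ended the Sgk1 call (0.0501). Genes near 1 FPKM, such as Npas2 and Atf3, are limited by depth, and FPKM scaling sets the balance between higher and lower calls.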

Other observations

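Of 20 interferon-stimulated genes 0 were higher and 3 lower at ZT10, with a median of -0.10. That was 15% called, against 25.2% of all genes tested. For the lists that follow, the share called was 30.8% in the cell cycle, 20% among antioxidant genes and 16.7% in the integrated stress response. Oas1a, an antiviral oligoadenylate synthetase, was at 2.33, 2.9 and 2.71 FPKM at ZT10 and at 4.68, 4.05 and 5.8 FPKM at ZT22 (-0.67), and Oas2 and Ifi44 were lower by 0.42 and 0.38, each losing its call without ZT10 replicate 1 (limma adjusted p = 0.0576 and 0.0874), where the list had 1 lower gene. Of 13 cell cycle genes 4 were higher and 0 lower, among them the inhibitor Cdkn1b (0.49) and the cyclin Ccnd2 (0.42). Antioxidant and glutathione genes had 2 higher, Hmox1 (0.64) and Nqo1 (0.22), and 2 lower, Gsta3 (-0.61) and G6pdx (-0.28), of 20. Without ZT10 replicate 1 neither Hmox1 nor G6pdx was called (limma adjusted p = 0.0974 and 0.0538). In the integrated stress response Chac1 (0.74) and Trib3 (0.49) were higher and Atf3 (-0.57) lower of 18, and Atf4 was not called (-0.14). Atf3 lost its call under 7 alternatives, among them without ZT22 replicate 1 (limma adjusted p = 0.18), and Trib3 lost its call without ZT22 replicate 1 (0.0661) and without ZT22 replicate 3 (0.0631). Of 4 skeletal muscle markers tested 1 was called, Acta1, which is 25% against 25.2% of all genes tested. The summed level of that list was 2163 to 2503 FPKM at ZT10 and 3498 to 3757 FPKM at ZT22. Of 3 adipocyte markers tested 1 was called, Cidea, which is 33.3%.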
